A study of Homo sapiens with 12 samples.

Results

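Receptors and signalling proteins of mature monocytes and macrophages were followed in ML-2, a human line of acute myeloid leukaemia, after a hypomethylating agent, an antagonist of inhibitor of apoptosis proteins, or both. The genes were CSF1R, FPR1, CD14, TLR2, TLR4, ITGAM, ITGAX, FGR, MNDA and CD33, and every probe set annotated to exactly one of these symbols was taken. This gave 15 probe sets for 9 of the 10 genes, out of 54675 probe sets on the array, of which 41091 carried a single gene symbol. CD33 was not analysed here. Of the 9 genes, 8 passed a brightness filter that also kept 12689 of 19775 genes, and CD14 did not. Expression was read on 12 Affymetrix arrays, 3 in each of 4 groups. The number in each array title was taken for an experiment number, which gave 3 experiments, though no label says so. The combination group received 2 µM SGI-110 for 24 h and then 5 µM ASTX660 for 9 h. The SGI-110 group received 2 µM SGI-110, given as 33 h. The ASTX660 group received solvent before 5 µM ASTX660 for 9 h, and the solvent group received solvent in place of both agents. SGI-110, or guadecitabine, releases the DNA methyltransferase inhibitor decitabine, and ASTX660 blocks inhibitor of apoptosis proteins. The labels do not say whether SGI-110 remained in the medium while ASTX660 was present, so the combination may differ from SGI-110 alone in exposure to SGI-110 as well. All groups came from the same line, and no other cell line was profiled, so the values describe ML-2 cultures only.

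Monocytes and macrophages arise from myeloid progenitors under the colony-stimulating factors, and they acquire surface receptors for microbes, complement and growth factor as they mature. CSF1R is the receptor tyrosine kinase that binds CSF1 and IL34. FPR1 is a G protein-coupled receptor that draws phagocytes towards formylated peptides of bacteria and mitochondria. CD14 hands lipopolysaccharide to TLR4, while TLR2 senses bacterial lipoproteins. ITGAM and ITGAX are the alpha chains of the complement receptor integrins and pair with the beta chain ITGB2. FGR is a Src-family kinase of myeloid cells that acts below integrins and Fc receptors, and MNDA is a nuclear protein of the PYHIN family. Leukaemic progenitors hold many of these genes at low levels, and the PU.1 and RUNX1 transcription factors drive several of them in monocytes.

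The promoter windows of 5 of these genes are shown as examples that differ in CpG content, the substrate of DNA methylation. They include genes that passed the tests below and genes that did not, and FGR, which passed, is given by its counts only. Each window is the 250 bases before a start site listed by RefSeq on GRCh38.p14, 5′ to 3′ on the strand of the gene. Capitals mark CG dinucleotides and GAGGAA, the core letters that PU.1 reads, or its reverse complement TTCCTC; a CG can share a base with such a match. The windows were CSF1R at chr5:150086555-150086804 on the minus strand, TLR4 at chr9:117704153-117704402 on the plus strand, ITGAM at chr16:31259725-31259974 on the plus strand, MNDA at chr1:158831101-158831350 on the plus strand and TLR2 at chr4:153684030-153684279 on the plus strand.
CSF1R: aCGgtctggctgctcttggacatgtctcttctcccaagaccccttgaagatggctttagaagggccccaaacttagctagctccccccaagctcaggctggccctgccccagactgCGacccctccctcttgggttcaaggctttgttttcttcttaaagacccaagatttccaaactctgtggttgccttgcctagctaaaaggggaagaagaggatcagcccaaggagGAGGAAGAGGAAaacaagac
TLR4: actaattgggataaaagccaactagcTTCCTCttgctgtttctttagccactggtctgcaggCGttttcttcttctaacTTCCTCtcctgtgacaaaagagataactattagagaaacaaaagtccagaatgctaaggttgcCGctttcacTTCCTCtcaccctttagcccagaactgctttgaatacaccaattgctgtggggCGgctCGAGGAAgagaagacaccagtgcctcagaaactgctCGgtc
ITGAM: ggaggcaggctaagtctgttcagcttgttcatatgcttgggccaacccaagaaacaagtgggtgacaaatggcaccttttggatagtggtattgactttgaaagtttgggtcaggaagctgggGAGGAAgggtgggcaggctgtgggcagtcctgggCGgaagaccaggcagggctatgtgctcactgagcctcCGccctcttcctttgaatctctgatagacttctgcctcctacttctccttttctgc
MNDA: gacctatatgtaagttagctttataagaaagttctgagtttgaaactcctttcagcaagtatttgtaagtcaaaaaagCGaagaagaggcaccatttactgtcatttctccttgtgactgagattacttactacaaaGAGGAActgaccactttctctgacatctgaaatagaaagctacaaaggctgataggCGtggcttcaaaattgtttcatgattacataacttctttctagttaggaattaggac
TLR2: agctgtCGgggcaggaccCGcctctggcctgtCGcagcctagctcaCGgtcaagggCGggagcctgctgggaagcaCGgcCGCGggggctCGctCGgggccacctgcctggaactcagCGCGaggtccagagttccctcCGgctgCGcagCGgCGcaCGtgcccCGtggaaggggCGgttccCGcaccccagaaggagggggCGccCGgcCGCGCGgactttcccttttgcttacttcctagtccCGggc

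The CSF1R window belongs to the inner of 2 listed start sites, the one used in macrophages, and held 2 CG and 2 GAGGAA matches. The outer CSF1R start held 6 CG and 0 matches, and the array does not tell the starts apart. The windows of ITGAM and MNDA each held 2 CG and 1 match. The TLR4 window held 5 CG and 4 matches. The TLR2 window differed from the others shown in its 26 CG and 0 matches. Over all 35116 listed promoter windows the median was 11 CG, 22.9% held 2 or fewer, and 82.3% held 26 or fewer. GAGGAA on either strand was present in 23.6% of all windows and in 6 of the 10 windows listed for 8 of these genes. TGTGGT, the core letters read by RUNX proteins, was searched on either strand too. It stood in the CSF1R window shown and in 1 of the 2 FGR windows, against 11.0% of all windows. The FPR1 window held 0 CG and 0 GAGGAA matches, a CG content shared by 6.06% of windows. The outer FGR window held 15 CG, with 59.0% of windows at 15 or fewer, and 2 GAGGAA matches. The inner FGR window held 4 CG and 0 matches, and the CD14 window 5 CG and 1 match. In these windows the CG counts of the genes that passed overlapped those of the genes that did not. ITGAX, which passed, is named only and has no window here, and CD14 was not in the gene test. Whether CpG content had a part in the changes was not tested. These counts describe letters, not bound factors or methylation, neither of which was measured.

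The deposited values were RMA log2 intensities between 2.078 and 14.38, with array medians between 4.688 and 4.774. Of 8 markers of the myeloid leukaemia line that were on the array, 7 were above the array median on all 12 arrays, among them MPO, ELANE and PRTN3, the granule proteins of promyelocytes. MEIS1 was below it on all 12. The mean over that list lay between 10.75 and 10.84 with the combination, 10.76 and 10.82 with SGI-110, 10.61 and 10.75 with ASTX660, and 10.70 and 10.81 with solvent, and the ranges of the groups met or overlapped except between ASTX660 and SGI-110. Of the 7 tested markers 2 rose with SGI-110 and with the combination, LYZ and, by 0.17 with SGI-110, CEBPA, a transcription factor of granulocyte and monocyte progenitors (adjusted p = 0.025 and 0.0386). The part of these shifts in the results was not tested. Mean levels over lists of T and NK, B, erythroid, megakaryocyte, and fibroblast or epithelial markers lay between 4.30 and 5.21 on every array, and 1 gene of those lists, NKG7, a granule protein of cytotoxic cells, rose with SGI-110, by 0.31. The 3′ minus 5′ control probes for ACTB lay between -0.096 and 0.077 log2 units, and the range of each group overlapped that of solvent. Those for GAPDH lay between -0.062 and 0.020, and the 3 SGI-110 arrays were below the 3 solvent arrays there by a small margin; the part of this in the results was not tested. Each array read RNA of a whole culture, so a larger share of cells with a transcript and more of it per cell cannot be told apart. Levels of different probe sets are not on a common scale, so each gene was compared only with itself.

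SGI-110 alone raised 5 of the 8 tested genes. CSF1R, TLR4, ITGAX, FGR and MNDA passed the test, FPR1, TLR2 and ITGAM did not, and 0 fell. Over all tested genes 9.5% rose, 5.9% fell and 15.4% changed in either direction in this comparison. The median change was 0.47 log2 units over the 8 genes and 0.00047 over all 12689. The genes were chosen with earlier results of these data known, so these contrasts with all tested genes describe the genes and do not test them as a set. Each of the 8 was above the array median on at least 5 of the 6 arrays without SGI-110, so none entered the test through the SGI-110 groups alone. The arrays did not overlap, SGI-110 above solvent, for 6 of the 8 genes, as they did for 19.5% of all tested genes.

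**Figure D1:**
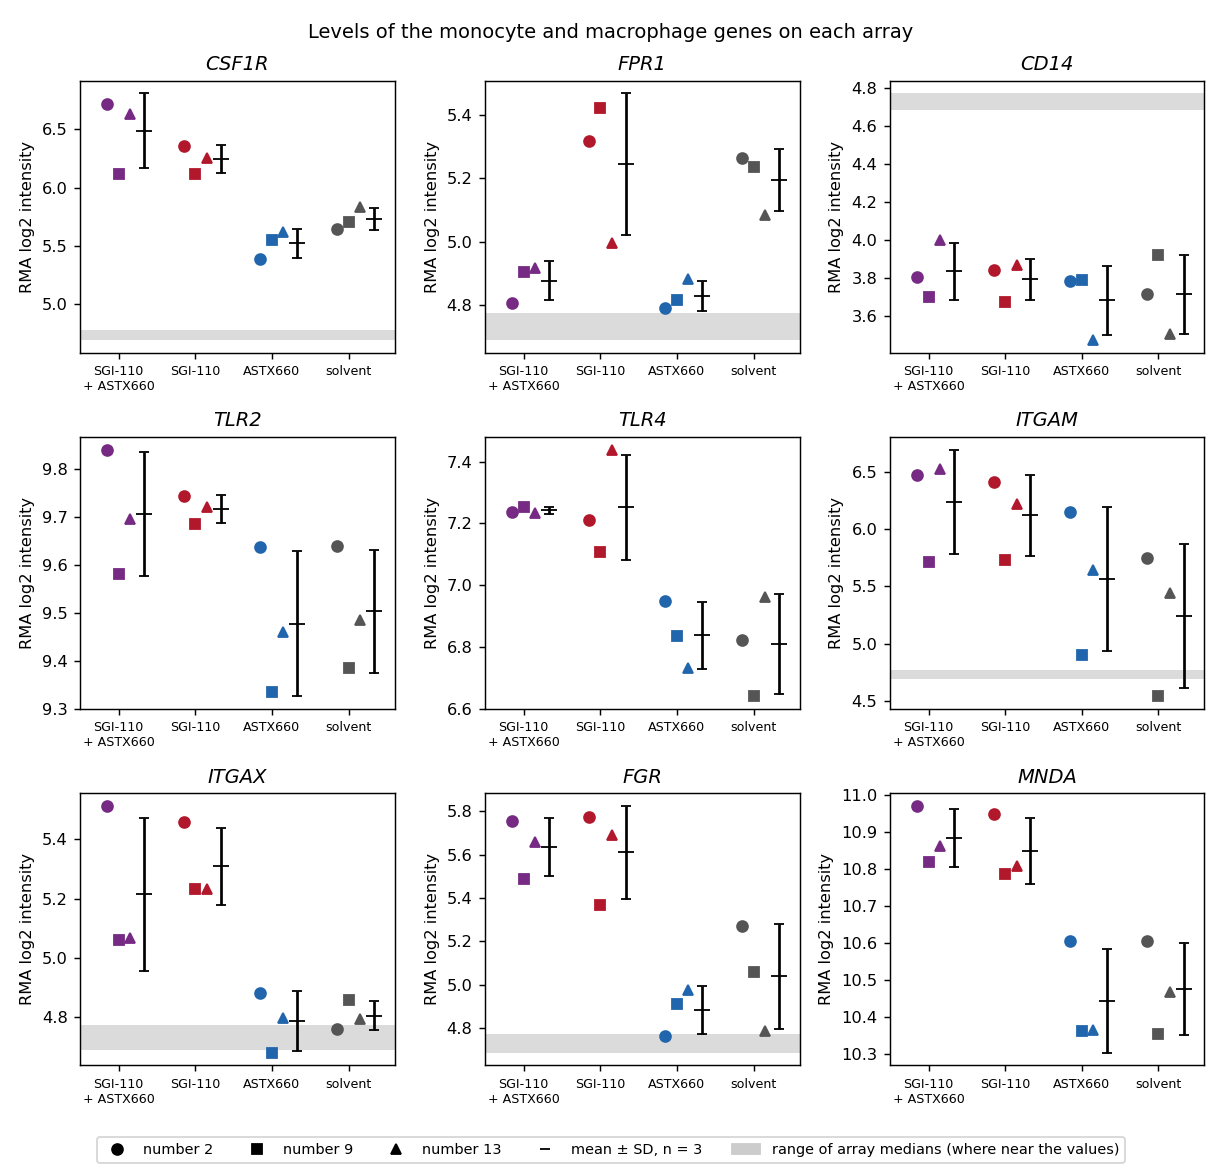
RMA log2 intensity of the 9 genes on each of the 12 arrays, by group, with symbols for the number in the array titles and the mean ± SD of 3 arrays beside them. The grey band is the range of the 12 array medians and is drawn where it lies near the values; both groups with SGI-110 lie above both groups without it for CSF1R, TLR4, ITGAX, FGR and MNDA, while CD14 lies below the band throughout.

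CSF1R read 6.36, 6.12 and 6.26 log2 units with SGI-110 on the arrays numbered 2, 9 and 13, against 5.65, 5.70 and 5.83 with solvent. Every SGI-110 array was above every solvent array. The means were 6.24 ± 0.122 and 5.73 ± 0.0948 (SD, n = 3 each), a rise of 0.52 ± 0.133 log2 units (SE), or 1.43-fold, with a limma adjusted p of 0.0172. The call was lost without SGI-110 array 2 (adjusted p = 0.0761), SGI-110 array 13 (0.0511), solvent array 2 (0.0653) or solvent array 9 (0.0572), at changes of 0.46 to 0.51. It was kept with the experiment number as a block.

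FPR1 read 5.32, 5.42 and 4.99 with SGI-110, against 5.26, 5.24 and 5.08 with solvent. The groups overlapped, and the SGI-110 array numbered 13 was the lowest of the 6. The difference was 0.05 log2 units (95% interval -0.18 to 0.28, adjusted p = 0.817), so a rise above 0.28 lay outside its interval.

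Among the receptors for bacterial products, TLR4 passed the test and TLR2 did not. TLR4, read by the probe set 224341_x_at, was at 7.21, 7.11 and 7.44 with SGI-110, against 6.82, 6.64 and 6.96 with solvent. All SGI-110 arrays were higher, and the rise was 0.44 ± 0.099 log2 units (SE), or 1.36-fold (adjusted p = 0.0081). That probe set carries the suffix of designs whose probes can also match other transcripts, which makes the other TLR4 probe sets below relevant. TLR2 read 9.74, 9.68 and 9.72 with SGI-110, against 9.64, 9.38 and 9.48 with solvent. The lowest SGI-110 array was above the highest solvent array by a small margin, and the difference of 0.21 log2 units (95% interval 0.03 to 0.40) had an adjusted p of 0.115. Within each experiment number TLR2 was higher by 0.10, 0.30 and 0.24, and with that number as a block its adjusted p was 0.0048. CD14, the partner of TLR4 that binds lipopolysaccharide, read 3.84, 3.67 and 3.87 with SGI-110, against 3.71, 3.92 and 3.51 with solvent. These CD14 values lay below the median of their own arrays on all 12 arrays, where differences between transcripts are poorly resolved. In a fit of all 41091 probe sets without a filter the CD14 difference was 0.08 (95% interval -0.18 to 0.34, adjusted p = 0.849).

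The complement receptor chains behaved unequally between arrays. ITGAX read 5.46, 5.23 and 5.23 with SGI-110, against 4.76, 4.86 and 4.80 with solvent. All 3 SGI-110 arrays were higher, with the array numbered 2 furthest up, and the solvent arrays stood at the level of the array medians. The rise was 0.50 ± 0.119 log2 units (SE), or 1.42-fold (adjusted p = 0.0112), and without SGI-110 array 2 it was 0.43 with an adjusted p of 0.0555. ITGAM read 6.41, 5.73 and 6.22 with SGI-110, against 5.75, 4.54 and 5.44 with solvent. The array numbered 9 was the lowest in every group, and the SGI-110 array 9 lay just under the solvent array 2, so the groups overlapped. The difference was 0.88 ± 0.334 log2 units (SE) and did not pass (adjusted p = 0.0961). It was 0.53 without solvent array 9 and 0.43 with the mean of both ITGAM probe sets. Within numbers 2, 9 and 13 ITGAM was higher by 0.66, 1.19 and 0.78, and with the number as a block the adjusted p was 1.3e-05.

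**Figure D2:**
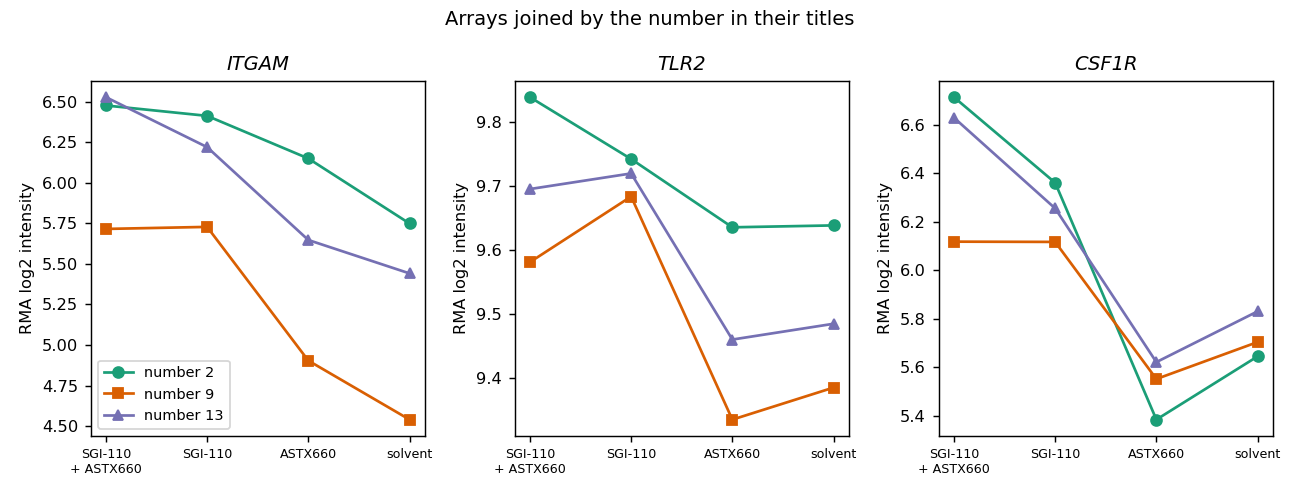
RMA log2 intensity of ITGAM, TLR2 and CSF1R on the 12 arrays, with arrays of the same title number joined by a line across the 4 groups. Number 9 is the lowest ITGAM array in each group, and each ITGAM line lies higher in both groups with SGI-110 than in solvent.

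FGR read 5.77, 5.37 and 5.69 with SGI-110, against 5.27, 5.06 and 4.79 with solvent. The lowest SGI-110 array stayed above the highest solvent array. FGR rose by 0.57 ± 0.132 log2 units (SE), or 1.49-fold (adjusted p = 0.0102), and lost the call without SGI-110 array 2 (adjusted p = 0.0522). MNDA read 10.95, 10.79 and 10.81 with SGI-110, against 10.60, 10.35 and 10.47 with solvent. Its rise was small and even, 0.35, 0.43 and 0.34 within the 3 numbers. The mean change was 0.37 ± 0.078 log2 units (SE), or 1.29-fold, with the smallest adjusted p of the 8 genes (0.0052), and MNDA was called under each of the 23 alternatives run. Together with ITGAM and TLR2, the block by number brought the count for SGI-110 against solvent to 7 genes higher and 0 lower, while over all tested genes the block brought the share higher to 14.9% and the share lower to 10.4%.

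**Figure D3:**
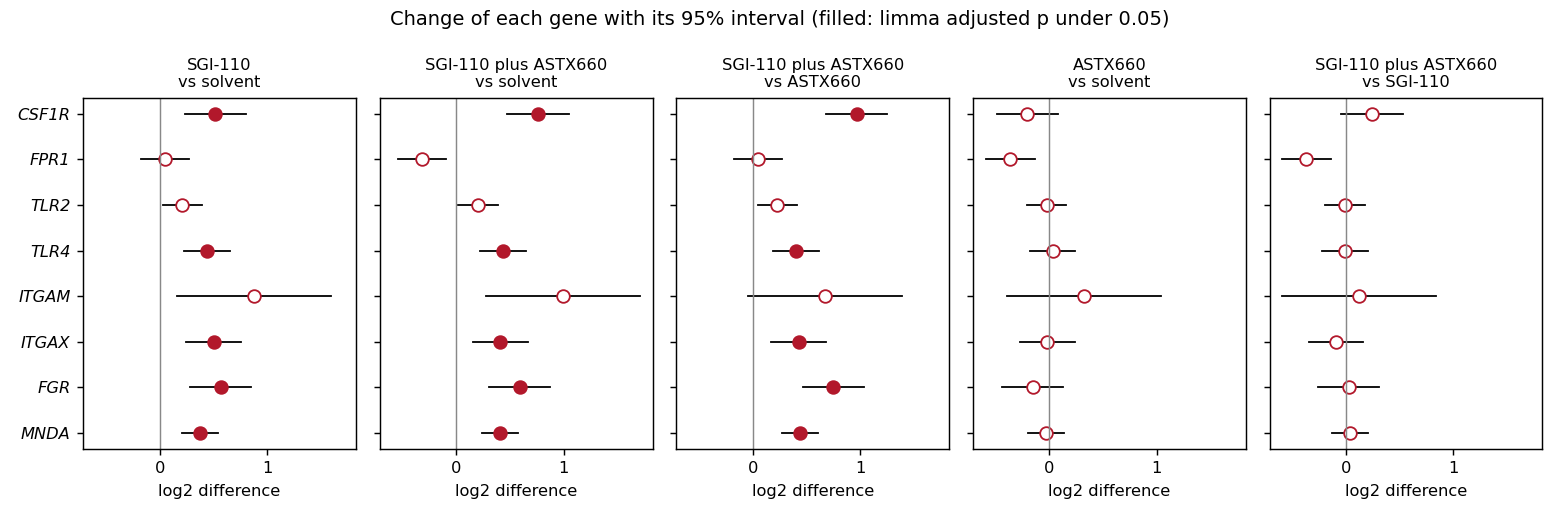
Log2 difference of the 8 tested genes in the 5 pairwise comparisons, with 95% intervals from limma; filled points have an adjusted p under 0.05. The same 5 genes are filled in the 3 comparisons that differ by SGI-110, and no point is filled in the 2 comparisons that differ by ASTX660, where FPR1 lies left of zero in both.

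The combination was then set against each agent alone and against solvent. These comparisons share arrays with the one above, the solvent or the combination arrays, so their likeness is not an independent repeat, and their values are given side by side. With SGI-110 plus ASTX660 against solvent, CSF1R, TLR4, ITGAX, FGR and MNDA rose and 0 of the 8 genes fell. Over all tested genes 12.1% rose, 5.85% fell and 17.9% changed in either direction, a split of 67.4% to 32.6% among the called genes that was 54.1% to 45.9% after quantile normalization and 77.3% to 22.7% after median centring. The median change was 0.42 log2 units over the 8 genes and 0.0012 over all tested genes. The arrays did not overlap for 5 genes higher and 1 lower, against 21.5% and 16.9% of all tested genes. With the number as a block all 8 genes passed, 7 higher and 1 lower, and over all tested genes 18.6% were then higher and 10% lower.

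CSF1R read 6.71, 6.12 and 6.63 with SGI-110 plus ASTX660, the highest level of any group, against 5.38, 5.55 and 5.62 with ASTX660 alone. The combination array 9 was well below the other two, yet above every array without SGI-110. CSF1R was higher in the combination by 0.76 ± 0.133 log2 units (SE) than in solvent, or 1.69-fold (adjusted p = 0.0016), and by 0.97 than in ASTX660, or 1.96-fold (adjusted p = 0.00033). FGR read 5.75, 5.49 and 5.66 with the combination, against 4.76, 4.91 and 4.98 with ASTX660. Its ASTX660 arrays lay at or below the middle of the solvent arrays. The FGR change was 0.59 against solvent (adjusted p = 0.0071) and 0.75 against ASTX660, or 1.68-fold (adjusted p = 0.0019).

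MNDA read 10.97, 10.82 and 10.86 with the combination, against 10.61, 10.36 and 10.36 with ASTX660. It rose by 0.41 against solvent (adjusted p = 0.0026) and by 0.44 against ASTX660 (adjusted p = 0.0019), and the groups did not overlap. TLR4 read 7.24, 7.25 and 7.24 with the combination, against 6.95, 6.84 and 6.73 with ASTX660. The combination arrays were nearly level with each other, and TLR4 rose by 0.43 against solvent (adjusted p = 0.0081) and by 0.40 against ASTX660 (adjusted p = 0.0138), a call lost without ASTX660 array 13 (0.0518). ITGAX read 5.51, 5.06 and 5.07 with the combination, against 4.88, 4.68 and 4.80 with ASTX660. Its combination array 2 stood apart from the other two. ITGAX rose by 0.41 against solvent (adjusted p = 0.0295), and this call was lost without combination array 2 (change 0.26, adjusted p = 0.114) without any of the 3 solvent arrays (0.0602 to 0.0873), or in a fit of the combination and solvent arrays alone (0.0543). Against ASTX660 it rose by 0.43 (adjusted p = 0.0255), lost without combination array 2 (change 0.28, 0.0985), ASTX660 array 9 (0.0927) or ASTX660 array 13 (0.0555).

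ITGAM read 6.48, 5.72 and 6.53 with the combination, against 6.15, 4.90 and 5.65 with ASTX660. The array 9 values were again the lowest in each group. The difference from solvent was 1.00 log2 units with an adjusted p of 0.0536, and 2.8e-06 with the number as a block. Without solvent array 9 it was 0.65, and with the mean of both probe sets 0.45. The pairing behind that block was weak for numbers 2 and 9. Deviations of combination and solvent arrays of the same number correlated at 0.15, 0.159 and 0.541 for numbers 2, 9 and 13. TLR2 read 9.84, 9.58 and 9.70 with the combination, against 9.64, 9.33 and 9.46 with ASTX660. The TLR2 difference from solvent was 0.20 (adjusted p = 0.118, and 0.0063 with the block), 0.20 to 0.21 within each number. Against ASTX660 neither passed, ITGAM at 0.67 (adjusted p = 0.198; 0.34 without ASTX660 array 9 and 0.33 with the mean of both probe sets) and TLR2 at 0.23 (adjusted p = 0.0867). In that comparison the same 5 genes rose and 0 fell, against 8.37% of all tested genes that rose, 7.69% that fell and 16.1% that changed. The ASTX660 arrays lay wholly below the combination arrays for those 5 genes, as for 14.1% of all tested genes.

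FPR1 was arranged otherwise. It read 4.80, 4.91 and 4.92 with the combination and 4.79, 4.81 and 4.88 with ASTX660, against 5.26, 5.24 and 5.08 with solvent. The ASTX660 arrays lay below the solvent arrays, and the combination arrays lay below both the solvent and the SGI-110 arrays. No FPR1 difference passed over all tested genes. The difference from solvent was -0.37 for ASTX660 (95% interval -0.59 to -0.14, adjusted p = 0.647) and -0.32 for the combination (-0.55 to -0.09, adjusted p = 0.0512, and 0.0323 with the number as a block). From SGI-110 alone the combination differed by -0.37 (-0.60 to -0.14, adjusted p = 1.0). Arrays not overlapping in the lower direction were found for 4.68% of all tested genes for ASTX660 against solvent. The shares were 16.9% for the combination against solvent and 4.16% for the combination against SGI-110. The FPR1 signal lay close to the array median, and its other probe set, 205118_at, stayed between 2.76 and 3.15 on all 12 arrays, with no such pattern.

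No gene of the 12689 passed for ASTX660 against solvent, the combination against SGI-110, or the interaction, in which the combination's change is set against the sum of both agents' changes. The share called was 0% in each, so a count of 0 of the 8 genes matched the background. At an unadjusted p under 0.05 limma held 894, 370 and 204 genes in those comparisons, and of the 8 genes 1, 1 and 1. FPR1 was that gene in the comparisons of ASTX660 with solvent and of the combination with SGI-110. CSF1R was that gene in the interaction, at 0.45 log2 units (95% interval 0.05 to 0.85, limma adjusted p = 1.0). With ASTX660 alone CSF1R was 0.21 below solvent (log2 difference -0.21, adjusted p = 0.762), with all ASTX660 arrays under all solvent arrays. In the combination CSF1R was 0.24 above SGI-110 (95% interval -0.04 to 0.53, adjusted p = 1.0). Within numbers 2, 9 and 13 that difference was 0.35, 0.0011 and 0.37, and it ran from 0.13 to 0.43 when single arrays were left out. Between the combination and SGI-110 alone, ASTX660 and a possible difference in exposure to SGI-110 cannot be told apart. The remaining intervals bound only the size of the difference between these groups. They ran from -0.22 to 0.20 for TLR4, -0.19 to 0.17 for TLR2, -0.13 to 0.20 for MNDA, -0.35 to 0.16 for ITGAX, and -0.26 to 0.31 for FGR. For ITGAM the interval was wide, -0.60 to 0.84.

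The order of the group means followed from this. For CSF1R it ran combination 6.49, SGI-110 6.24, solvent 5.73 and ASTX660 5.52, and only the step between SGI-110 and solvent passed. FGR followed the same order at 5.63, 5.61, 5.04 and 4.88, and MNDA at 10.88, 10.85, 10.47 and 10.44, again with a single step that passed, the one from SGI-110 to solvent. ITGAX ran SGI-110 5.31, combination 5.21, solvent 4.81 and ASTX660 4.79. TLR4 ran SGI-110 7.25, combination 7.24, ASTX660 6.84 and solvent 6.81. In these 2 genes the step between the groups with and without SGI-110 was the only large one. ITGAM ran combination 6.24, SGI-110 6.12, ASTX660 5.57 and solvent 5.24, and each step was smaller than the larger SD of its pair, which was 0.455, 0.627 and 0.628. TLR2 ran SGI-110 9.72, combination 9.71, solvent 9.50 and ASTX660 9.48, and FPR1 ran SGI-110 5.25, solvent 5.19, combination 4.88 and ASTX660 4.83, with no neighbouring pair called in either gene. CD14 spanned 3.68 to 3.83 over the 4 group means, less than the largest SD of a group (0.208).

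Several genes were covered by more than 1 probe set, and these were read separately in the fit of all 41091 probe sets. SGI-110 raised 6 of the 15 probe sets against solvent, compared with 3.72% of all probe sets. The combination raised 5 of the 15 against solvent and 5 against ASTX660, compared with 5.12% and 3.55% of all probe sets. TLR4 had 4 probe sets, each higher with SGI-110. They differed from solvent by 0.44 (224341_x_at, adjusted p = 0.0143), 0.37 (1552798_a_at, 0.0492), 0.43 (232068_s_at, 0.113) and 0.29 (221060_s_at, 0.114). In the combination the same TLR4 probe sets differed from solvent by 0.43, 0.34, 0.43 and 0.33, and only 224341_x_at passed (adjusted p = 0.0141). If 232068_s_at, the one with the highest variance, stood for the gene, the TLR4 calls were lost for SGI-110 (adjusted p = 0.0831), for the combination against solvent (0.0746) and for the combination against ASTX660 (0.318). The second probe sets of ITGAM (205785_at), ITGAX (1563003_at) and FPR1 (205118_at) were dim and differed by -0.01, -0.09 and -0.07 with SGI-110. They therefore did not share the rise read by the brighter probe sets of ITGAM and ITGAX, and probe sets of a gene are not replicates. CSF1R, CD14, TLR2, FGR and MNDA had 1 probe set each.

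**Figure D4:**
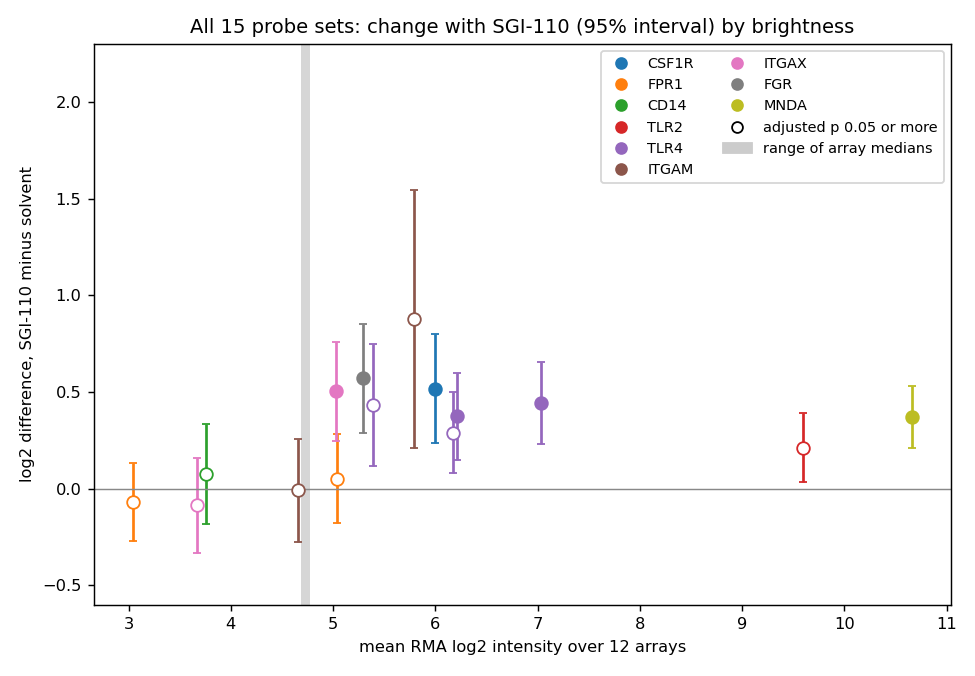
Log2 difference between SGI-110 and solvent with its 95% interval for each of the 15 probe sets, against the mean RMA log2 intensity over 12 arrays. Filled points have an adjusted p under 0.05 over 41091 probe sets; the 4 probe sets left of the grey band of array medians lie near zero, and the 4 TLR4 probe sets lie between 0.29 and 0.44.

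Genes that work with these receptors were counted in 7 lists of 116 genes, of which 83 were tested. Of these, CD86, EGR1, S100A8, TLR7 and TLR9 were above the array median on fewer than 3 of the 6 arrays without SGI-110. They passed the brightness filter through the groups with SGI-110, which favours a difference, and are left out of the counts of the lists. Among the other 78 genes 16 rose and 2 fell with SGI-110 alone, and 19 rose and 3 fell with the combination, both against solvent. The shares that rose among the 12433 genes that passed the filter without SGI-110 were 9.31% and 11.9%. Over all 12689 tested genes 5.9% and 5.85% fell. The lists too were chosen with earlier results of these data known, so their counts are a description. No list gene passed for ASTX660 against solvent or for the combination against SGI-110. Counts with the number as a block are to be read against the 14.9% and 18.6% of all tested genes that were then higher.

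Of 11 tested integrin partners, 4 rose and 1 fell with SGI-110, and 4 rose and 2 fell with the combination. The median change was 0.25 log2 units in each, and with the number as a block 7 rose in each. ITGB2, the beta chain that ITGAM and ITGAX require at the surface, rose by 0.54 with SGI-110 (1.46-fold, adjusted p = 0.0082) and by 0.60 with the combination (1.52-fold, 0.0039). ITGAV, a receptor chain for vitronectin, rose by 0.58 and 0.60, and ITGB7 by 0.49 and 0.70. The SGI-110 call of ITGB7 was lost without SGI-110 array 13 (adjusted p = 0.071) or solvent array 2 (0.0728). ITGA5, the fibronectin receptor chain, rose as well, by 0.29 and 0.28. ITGA4, the chain through which leukocytes bind VCAM1, fell by 0.41 with SGI-110 (adjusted p = 0.00087) and by 0.29 with the combination (0.0073). ITGAD fell with the combination, by 0.37 (adjusted p = 0.0246). The surface alpha chains of the list therefore changed in opposite directions.

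Of 19 tested partners that carry ITAM signals or act as Src-family kinases, phosphatases or inhibitory receptors, 6 rose and 0 fell in both comparisons. The median change was 0.19 with SGI-110 and 0.15 with the combination. TYROBP, the adaptor of activating myeloid receptors, rose by 1.00 ± 0.106 log2 units (SE) with SGI-110 (adjusted p = 4.1e-05) and by 1.08 with the combination (2.12-fold, 2.0e-05). FCER1G, the gamma chain shared by Fc receptors, rose by 0.90 and 0.98, although its SGI-110 call was lost without SGI-110 array 2 (adjusted p = 0.0518), SGI-110 array 13 (0.0754) or solvent array 9 (0.0793), and with a robust variance (0.0553). PILRA, an inhibitory receptor, rose by 0.59 and 0.60 (0.93 with the combination by its most variable probe set). The tyrosine kinase FES rose by 0.35 and 0.37, and the phosphatases PTPRC and PTPN6 by 0.69 and 0.21 with SGI-110. The kinases LYN and SYK, which act beside FGR, differed from solvent by 0.08 (adjusted p = 0.644) and 0.07 (adjusted p = 0.635).

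Of 10 tested genes around formyl peptide and related receptors, 3 rose with SGI-110 and 4 with the combination, and 0 fell. With the number as a block 6 and 7 rose. ANXA1, a ligand of the formyl peptide receptors, rose by 1.12 log2 units in each comparison (2.17-fold with SGI-110, adjusted p = 0.00052). With the mean of all ANXA1 probe sets it rose by 0.69 in each (adjusted p = 0.0027 and 0.0024). RGS2, which ends G protein signals, rose by 1.32 in each (2.49-fold with SGI-110, adjusted p = 0.00088). C3AR1, the receptor of the complement fragment C3a, rose by 0.57 in each (lost without SGI-110 array 2 at 0.0615, without combination array 2 at 0.0592, or without solvent array 13 at 0.0631 and 0.0545). PTAFR, the receptor of platelet-activating factor, rose with the combination by 0.40. With SGI-110 alone PTAFR differed from solvent by 0.36 (limma adjusted p = 0.0526), and the combination differed from SGI-110 by 0.05. FPR2 stayed near the array median and differed by -0.01 with SGI-110 (adjusted p = 0.984). The PTAFR call against solvent was lost without any of the 3 solvent arrays (adjusted p = 0.0519 to 0.0964) and without combination array 2 (0.0614) or 13 (change 0.25, 0.11). It was also lost with the most variable probe set (0.225), after quantile normalization (0.0621) and in the fit of both groups alone (0.0591).

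Of the genes of Toll-like receptor signalling 15 were tested. Besides TLR7 and TLR9, 0 of the other 13 were called by limma with SGI-110 or with the combination, and 1 and 0 had an unadjusted p under 0.05. Of all 12689 tested genes 3529 and 4062 had such an unadjusted limma p. TLR9, the endosomal sensor of CpG DNA, averaged 4.83 ± 0.226 log2 units with the combination, 5.04 ± 0.197 with SGI-110, 4.72 ± 0.116 with ASTX660 and 4.62 ± 0.11 with solvent (SD, n = 3 each), and is given as a level only. The adaptor MYD88 differed by 0.02 (adjusted p = 0.898), and LY96, the co-receptor that TLR4 needs for lipopolysaccharide, was under the brightness filter. Of 14 tested ligands and signalling genes of CSF1R and its relatives, only CSF2RA, the alpha chain of the GM-CSF receptor, rose, by 0.35 (adjusted p = 0.0248) and 0.31 (0.0398). The counts with the number as a block were 3 and 4. The CSF1R ligands CSF1 and IL34 differed by 0.20 (adjusted p = 0.323) and 0.11 (0.53) with SGI-110. CSF2RA lost its SGI-110 call without SGI-110 array 2 or 9 or solvent array 2 or 13 (adjusted p = 0.0545 to 0.0912), and its combination call without combination array 2 or 13, SGI-110 array 2, or solvent array 2 or 13 (0.0517 to 0.143). The SGI-110 call was also lost with the mean of all CSF2RA probe sets (change 0.22, 0.0505). The combination call was also lost with the most variable probe set (0.0542), with no brightness filter (0.0584) and in the fit of both groups alone (0.0673).

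Of 4 PYHIN family genes, relatives or partners of MNDA, 2 were tested. IFI16, a nuclear DNA sensor that lies in the same gene family as MNDA, rose by 0.48 with SGI-110 (adjusted p = 0.0047) and by 0.46 with the combination (0.0054). PYCARD, the inflammasome adaptor, differed by 0.02 (adjusted p = 0.885). Of 26 further macrophage maturation markers 12 were tested, and CD86, EGR1 and S100A8 were above the array median on 0 of the 6 arrays without SGI-110. Among the other 9, 1 rose and 1 fell with SGI-110, and 3 rose and 1 fell with the combination. With the number as a block 6 and 6 of the 9 were higher. LYZ, encoding lysozyme, rose by 0.24 and 0.22. Its calls were lost without array 2 or 13 of the treated group or solvent array 9 (adjusted p = 0.0588 to 0.0628 for SGI-110, 0.0606 to 0.0817 for the combination), without the variance trend (0.0548 and 0.06) and with the mean of all probe sets (0.0611 and 0.0668). VCAN, a matrix proteoglycan of monocytes, and CSTA, a cysteine protease inhibitor, were the others that rose with the combination. EGR1, an early transcription factor of macrophage differentiation, averaged 5.46 ± 0.146 log2 units with the combination, 5.38 ± 0.406 with SGI-110, 4.40 ± 0.247 with ASTX660 and 4.45 ± 0.0802 with solvent (SD, n = 3 each). CD86, a costimulatory ligand, averaged 5.36 ± 0.827 log2 units with the combination, 5.30 ± 0.464 with SGI-110, 3.91 ± 0.249 with ASTX660 and 4.08 ± 0.321 with solvent (SD, n = 3 each). Both are given as levels only. IRF8, a transcription factor of monocyte and dendritic cell commitment, fell by 0.42 (adjusted p = 0.00062) and 0.39 (0.00095). SPI1, which encodes PU.1, differed by 0.16 in each (adjusted p = 0.467 and 0.439). CD163, MRC1 and MSR1, scavenger and mannose receptors of tissue macrophages, were under the filter.

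**Figure D5:**
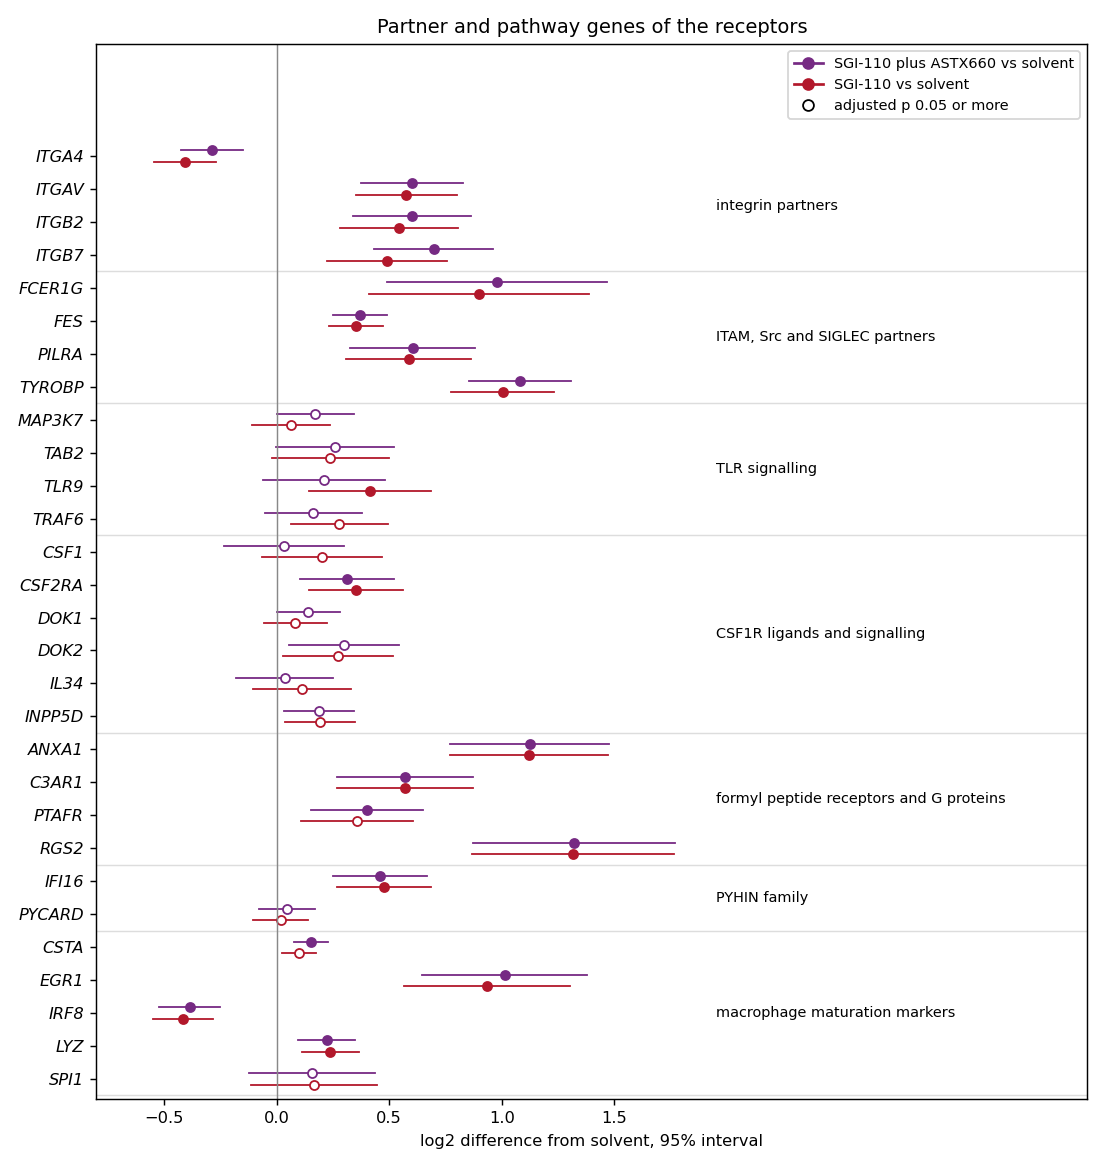
Log2 difference from solvent with its 95% interval for the named genes of the 7 lists, with the combination above SGI-110 alone for each gene; filled points have an adjusted p under 0.05. EGR1 and TLR9 are drawn, but they passed the filter only through the groups with SGI-110. Their points, intervals and fills are therefore not evidence of a difference. Among the other genes TYROBP, ANXA1 and RGS2 lie furthest right, and ITGA4 and IRF8 lie left of zero. Most named genes of Toll-like receptor and CSF1R signalling have open points.

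MNDA had the smallest adjusted p for SGI-110 among the 8 genes, and its profile over the 12 arrays was set against all other tested genes as a description. The arrays share 4 groups and 3 experiment numbers, so such correlations hold the SGI-110 difference as well as the differences between numbers. The nearest profiles were EVI2B (Pearson r = 0.985), RPS27L (0.980), EHD1 (0.980), TEAD3 (0.979) and ANKRD22 (0.979). EVI2B, a transmembrane protein of blood cells, rose by 0.53 log2 units with SGI-110, and ANKRD22 by 1.03. Among the receptors r with MNDA was 0.924 for TLR2, 0.890 for ITGAX, 0.879 for TLR4, 0.877 for FGR, 0.847 for CSF1R and 0.835 for ITGAM, but 0.088 for FPR1. Within groups, after each group mean was removed, r with MNDA stayed at 0.899 for TLR2 and 0.829 for ITGAM. It was 0.532 for ITGAX, 0.379 for TLR4, 0.296 for FGR, 0.111 for CSF1R and -0.057 for FPR1. Within groups TLR2 and ITGAM thus varied closely with MNDA, and CSF1R and FPR1 hardly did.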

How the data were processed

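The authors deposited log2 intensities from RMA for 12 arrays, made with the affy package, per the submitters' processing notes; no label states its version or whether all arrays were normalized together. No value was transformed further. Probe sets were named by the platform annotation: of 54675, 42898 were listed, 41091 had 1 symbol, and 41037 of these matched the gene table. Where a gene had several probe sets the one brightest on average stood for it, and a gene was tested if it exceeded the array median on at least 3 arrays. Differences were fitted with limma 3.58.1 (R 4.3.3), a mean for each group, all arrays in one fit, moderated variances with an intensity trend (8 residual degrees of freedom), and Benjamini-Hochberg adjustment over 12689 genes; calls had an adjusted p under 0.05. "Rose" and "fell" are used of such calls. The code was tested on simulated data. The number of arrays limits the precision: the median SE of the SGI-110 differences was 0.112 log2 units, and RMA compresses ratios at low intensity.

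The members and gene lists were chosen with earlier results of these data known. Named list genes were up to 4 per list with the smallest adjusted p, plus ITGB2, LY96, CSF1, IL34, TYROBP and SPI1. ITGA5, ITGAD, PTPN6, PTPRC, CD86, S100A8, VCAN, LYN, SYK, FPR2, MYD88, CD163, MRC1, MSR1, TLR7, CEBPA and NKG7 were named after values were seen. List genes above the array median on fewer than 3 arrays without SGI-110 were set aside, also after values were seen. The title numbers 2, 9 and 13 were taken for experiment numbers, though no label says so, and served as a block in an alternative. Deviations from the group means correlated between arrays of the same number at 0.377, 0.367 and 0.572 for SGI-110 against solvent, and at 0.15, 0.159 and 0.541 for the combination against solvent. For the combination against ASTX660 they were 0.057, 0.158 and 0.539, so that pairing was not used beside its results. Those for the combination against solvent were also low for numbers 2 and 9, so its blocked results are to be read with caution. Alternatives were other probe set choices, filters, scalings and variance models, array weights, the block, leaving out each array, and fits of the 2 groups alone. Promoter windows came from RefSeq GRCh38.p14, with entries for 8 genes.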

Additional observations from a re-analysis of the deposited data

How the results depend on the processing

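Over 1084 recomputed changes of the 8 genes, 1042 kept direction and side of the threshold, 19 lost a call, 23 gained one and 0 called changes turned sign; 47 uncalled differences changed sign. With the experiment number as a replicate block, the called genes were 3202 for SGI-110 against solvent (1955 without it), 1 for ASTX660 against solvent, 3632 for the combination against solvent (2275), 10 for the combination against SGI-110 and 3378 for the combination against ASTX660 (2038). Of the 8 genes, 7, 0, 8, 0 and 7 were then called. Of the 15 probe sets, 9 were called for the combination against solvent and 8 against ASTX660. The share of all probe sets called with the block was not determined. These probe set counts therefore have no background to be read against, and nothing is concluded from them. For the combination against ASTX660, where the numbers did not pair the arrays on every number, the block added ITGAM (adjusted p = 0.00021) and TLR2 (0.0028). The block changed no call of the 8 genes other than these and those of ITGAM, TLR2 and FPR1 given above. A fit of the combination and ASTX660 arrays alone called 1232 genes and lost ITGAX (adjusted p = 0.0735). Leaving out each array in turn gave 1239 to 2312 genes and 2 to 5 of the 8 genes for SGI-110 against solvent, 1389 to 2751 and 4 to 6 for the combination against solvent, and 1310 to 2033 and 3 to 6 for the combination against ASTX660. The lowest counts of the 8 genes, 2 and 3, came without SGI-110 array 2 and without ASTX660 array 13. ITGAX and FPR1 had no value when all probe sets of a gene were averaged, since the mean failed the filter, and the interaction has no fit of 2 groups alone. FPR1 for the combination against solvent passed under 8 of 22 alternatives (adjusted p = 0.0203 to 0.152 over them) and ITGAM under 7 of 23 (2.8e-06 to 0.225). Signal near the array median limits FPR1 and ITGAX, and signal below it limits CD14, since RMA differences are compressed at low intensity.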
